A study of Danio rerio with 4 samples.

Results

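The cells described here are globin-rich cells of zebrafish larvae at 3 days post fertilization (dpf). They were chosen by their own globin transcripts: a cell barcode counted when it had at least 500 unique molecular identifiers (UMIs, counts of single captured transcripts), at least 300 genes, at most 10% mitochondrial UMIs, and at least 20% of its UMIs from genes whose symbol starts with hbbe or hbae. There were 480 such cells among 27473 kept cells of the larvae given an ALK5 inhibitor (ALK5i) and 922 among 34159 kept cells of the DMSO controls, 1402 of 61632 in all at 3 dpf. Globin levels set the membership, so the height of the globin share is a description and not a result.

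The study asked how a pulse of TGF-β receptor inhibition in the embryo alters blood cells later on. ALK5i embryos received 20 µM SB431542, which blocks the type I TGF-β receptor ALK5, and control embryos received the solvent DMSO, both from 30 to 50 hours post fertilization (hpf), in E3 medium at 28 °C with 40 to 50 embryos in a well. At 3 dpf whole larvae were minced and treated with the enzyme mix Liberase (10 min, 37 °C), and cells positive for a gata2b GFP reporter, which all 3 dpf groups carry, were sorted and read with a 10x Genomics 3′ droplet kit. Further libraries of mpeg1.1 mCherry-positive cells at 6 dpf are used here only where named. Each group is 1 library from pooled larvae, so the treatment, the pool of embryos and the library itself cannot be told apart, and no test between groups was possible. Every interval below is a 95% interval that covers counting error only, except those of median log2 ratios, which run over genes.

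Hemoglobin is built from alpha-type and beta-type globin chains that each hold a heme group. In zebrafish the hbae genes encode embryonic alpha-type chains and the hbbe genes embryonic beta-type chains, while the hbaa and hbba genes are the adult set. The first red cells of the embryo enter the circulation early, keep their nuclei, and fill up with hemoglobin while the rest of their transcriptome shrinks. Besides globin they need enzymes that make heme, proteins that import and store iron, a membrane skeleton with ion and gas channels, and enzymes against oxidation.

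The label was checked with erythroid genes that the selection did not use. Hemgn, an erythroid nuclear protein, had a UMI in 95.2% of ALK5i and 93.8% of DMSO globin-rich cells, against 0.656% and 1.22% of the other kept cells of the same libraries. The same shares for cahz, a carbonic anhydrase of red cells, were 86.9% and 87.1% against 0.537% and 0.794%. Those for alas2, the enzyme of the first step of heme synthesis in red cells, were 67.1% and 71.2% against 0.230% and 0.409%. The erythroid transcription factor gata1a was detected in only 6.25% and 7.48% of globin-rich cells, against 0.571% and 0.830% of the others, and klf1 in 5.83% and 6.399%, against 0.408% and 0.484%.

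The globin-rich cells had few genes and few UMIs outside globin. Their median depth was 1992 UMIs in ALK5i and 2296 in DMSO, against 1788 and 2422 in other kept cells, and their median was 373 and 426 genes against 903 and 1141. Globin took a median of 62.7% of a cell's UMIs in ALK5i and 66.4% in DMSO, which left a median of 658.5 and 731 UMIs for all other genes. When each cell was thinned to 500 UMIs, the median was 146 genes in ALK5i and 139 in DMSO globin-rich cells, against 352 and 354 in other cells. At the median globin shares above, globin fills most of those 500 UMIs in globin-rich cells. The selection itself set only a minimum globin share. How much of the gap to the other cells comes from globin or from the selection was not tested. The depth left for other genes is not equal between ALK5i and DMSO either. Mitochondrial genes took a median of 0.202% and 0.228% of UMIs. The libraries share 248 barcodes, of which 2 were globin-rich in both.

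Lowering the threshold from 20% to 10% globin took the cells from 480 to 502 in ALK5i and from 922 to 965 in DMSO. Few cells lay near 20%, but no gap marked that threshold. The highest cell below it held 19.6% globin and the lowest above it 20.1% in the ALK5i library, and 11 cells lay between 15% and 20% beside 20 cells between 20% and 25%. In the DMSO library the nearest cells held 19.8% and 20.1%, and 22 and 43 cells lay in these ranges. Cells just above the threshold were large, with a median of 3974 UMIs and 1375 genes in ALK5i and 5076 UMIs and 1570 genes in DMSO. Scrublet, which scores barcodes against simulated doublets, called 65% and 79.1% of them, but no cell at 60% globin or more in either library.

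How many globin-rich cells each library held turned on the minimum of 300 genes. With it, they were 1.75% of kept cells in ALK5i (interval 1.596% to 1.91%) and 2.70% in DMSO (2.53% to 2.88%), so ALK5i differed from DMSO by -0.952 percentage points (-1.18 to -0.720). The minimum, however, removed 520 of 1000 ALK5i barcodes at 20% globin or more, which is 52%, against 95 of 1017 in DMSO, which is 9.34%. Of the barcodes under 20% globin it removed only 0.896% in ALK5i and 0.309% in DMSO. Without the minimum the share was 3.54% in ALK5i and 2.96% in DMSO, a difference of 0.581 points (0.302 to 0.863) in the other direction. With a minimum of 200 genes it was 3.41% and 2.94%, and with 400 genes 0.810% and 1.71%.

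**Figure D1:**
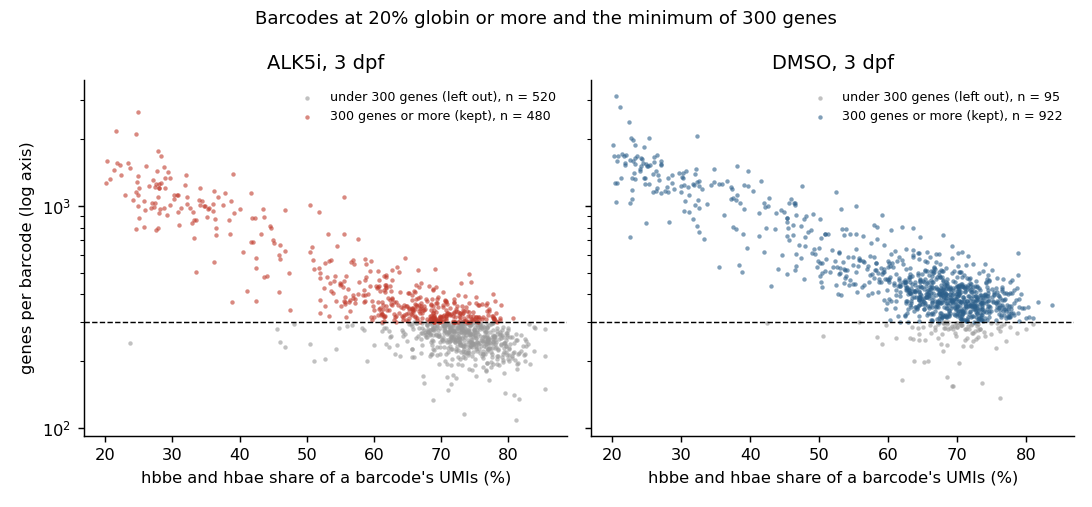
Every 3 dpf barcode at 20% globin or more, with the hbbe and hbae share of its UMIs (percent) across and its number of detected genes (log axis) up, ALK5i left and DMSO right. The dashed line marks 300 genes; grey points under it (520 in ALK5i, 95 in DMSO) are left out of the selection, and coloured points (480 and 922) are kept.

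The barcodes left out carried the same erythroid genes. Their median was 254.5 genes and 1498 UMIs in ALK5i and 278 genes and 1346 UMIs in DMSO, with 73.6% and 69.8% globin. Scaled to a common total of UMIs outside the hbbe and hbae genes (counts per 1000000, CPM, the scale for all other genes below), hemgn stood at 7071 and 5294 there, alas2 at 2297 and 1783, and cahz at 5272 and 4537. In globin-rich cells of 60% to 80% globin, a like share, hemgn stood at 6484 and 5675, alas2 at 2199 and 2176, and cahz at 4392 and 3859, so hemgn and alas2 were below those levels in ALK5i and above them in DMSO. In ALK5i the barcodes left out held 48.4% of all embryonic globin UMIs of the library and the globin-rich cells 48.9%, whereas in DMSO the figures were 5.66% and 87.8%. The remaining kept cells held 2.71% and 6.41%, and 36.2% and 72.5% of them had at least 1 globin UMI.

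Within globin, 3 genes made up most of the UMIs. A 3′ kit counts each transcript end once, so UMIs of different genes can be set side by side without a length correction. The beta-type hbbe1.1 took 28.0% of hbbe and hbae UMIs in ALK5i and 29.9% in DMSO, the beta-type hbbe1.3 took 24.8% and 27.5%, and the alpha-type hbae3 took 27.1% and 23.3%. Smaller shares went to hbbe1.2 (6.28% and 6.51%), hbbe2 (3.81% and 4.09%) and the alpha-type hbae1.1 (1.02% and 0.939%). Of 2 features that the files both call hbae1.3, ENSDARG00000088330 took 4.32% and 3.88% and ENSDARG00000089124 took 4.10% and 3.52%. The copies of this family are near-identical, so the split of reads between them is uncertain, and a reference table names the first of these features hbae1.2.

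The cells were divided into 3 bands by the share of globin UMIs assigned to hbbe1.1. The split of reads between near-identical copies is uncertain, so the bands describe assigned UMIs. Whether they reflect which beta-type gene a cell used was not tested. The share of hbbe1.1 in a cell's globin UMIs was under 5% in 94 of 480 ALK5i cells (19.6%, interval 16.1% to 23.4%) and 180 of 922 DMSO cells (19.5%, 17.0% to 22.2%). It lay between 10% and 30% in 113 ALK5i cells (23.5%) and 222 DMSO cells (24.1%), and at 30% or more in 273 (56.9%) and 520 (56.4%). Between 5% and 10% there was no cell in either library. The highest cell of the low band had 2.36% in ALK5i and 2.76% in DMSO, and the lowest cell of the middle band 10.4% and 13.3%. The bands were drawn after these values had been seen. The division at 30% is not a gap, since the highest cell of the middle band had 29.2% in ALK5i and 30.0% in DMSO and the lowest of the high band 30.6% and 30.2%. Among globin-rich cells, band sizes in the ALK5i and DMSO libraries lay within each other's intervals.

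**Figure D2:**
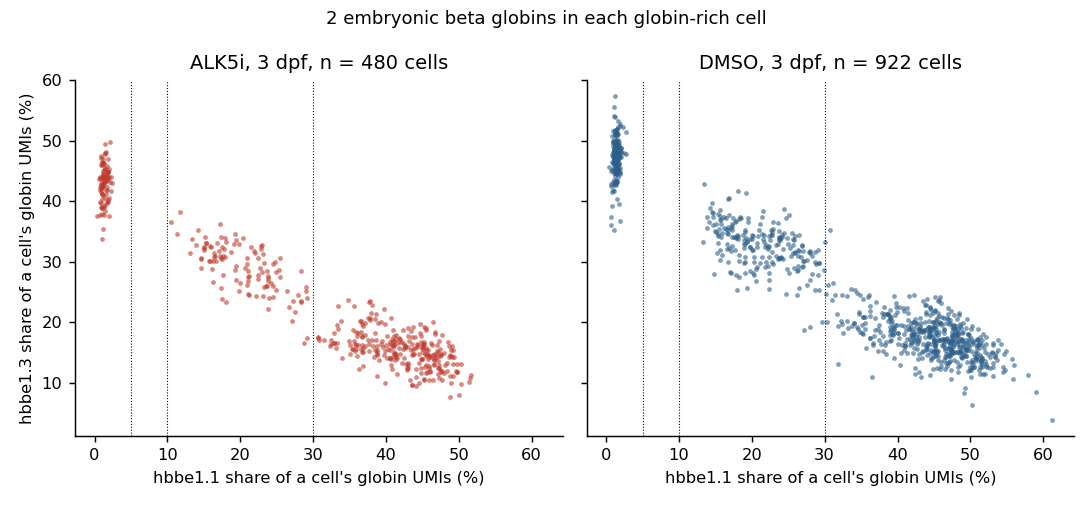
Share of hbbe1.1 (across) and of hbbe1.3 (up) in the hbbe and hbae UMIs of each globin-rich cell, in percent, with 480 ALK5i cells left and 922 DMSO cells right. Dotted lines mark 5%, 10% and 30% hbbe1.1; no cell lies between 5% and 10%, and hbbe1.3 steps down as hbbe1.1 steps up.

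Other globins moved with these bands. The median hbbe1.1 share from the low to the high band was 1.26%, 20.9% and 42.9% in ALK5i and 1.35%, 20.9% and 45.5% in DMSO. Along the same bands the median hbbe1.3 share was 43.3%, 29.6% and 15.5% in ALK5i and 47.5%, 32.9% and 17.2% in DMSO, so the 2 beta-type genes ran opposite to each other. The median hbbe1.2 share was 13.04%, 8.03% and 1.52% in ALK5i and 13.4%, 8.08% and 1.12% in DMSO. The hbae1.3 feature ENSDARG00000088330 went the same way as hbbe1.2, with 7.31%, 5.41% and 1.995% in ALK5i and 6.52%, 4.89% and 1.99% in DMSO. The other hbae1.3 feature went the other way by less, with 3.66%, 3.77% and 4.38% in ALK5i and 2.88%, 3.08% and 3.71% in DMSO. The largest alpha-type gene did not follow the bands: hbae3 had medians of 26.9%, 27.7% and 27.2% in ALK5i and 24.0%, 23.9% and 23.0% in DMSO. Neither did hbbe2, which had medians of 3.59%, 3.65% and 3.74% in ALK5i and 3.53%, 4.20% and 4.15% in DMSO.

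Across single cells, Spearman's rho of the hbbe1.1 share was -0.90 with hbbe1.3 and -0.91 with hbbe1.2, in 480 ALK5i and in 922 DMSO cells alike. With the hbae1.3 feature ENSDARG00000088330 it was -0.90 in both, with hbae3 0.03 and -0.09, and with hbbe2 0.03 in both. These are descriptions: the cells of a library share their pool, and shares of one total are tied to each other. In the RefSeq gene order of zebrafish, hbbe1.1, hbae1.1, hbbe1.2, hbae1.2, hbbe1.3, hbae1.3 and hbae3 stand in 1 run beside the adult globins, and hbbe2, hbbe3 and hbae5 in another.

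Outside globin some genes differed between the bands and others did not. From the low to the high band the median globin share of all UMIs was 65.8%, 64.5% and 61.6% in ALK5i and 69.9%, 63.9% and 66.4% in DMSO, and the median number of genes 373.5, 359 and 382 in ALK5i and 430.5, 437 and 419.5 in DMSO. Heme synthesis genes summed to 2507, 3000 and 3066 CPM in ALK5i and 3061, 2997 and 3133 CPM in DMSO. The membrane skeleton list summed to 5236, 6225 and 5396 CPM in ALK5i and 6285, 5783 and 6377 CPM in DMSO. Alas2 was higher toward the high band in globin-rich cells, with 920, 1159 and 1344 CPM in ALK5i and 1130, 1313 and 1485 CPM in DMSO. In the barcodes under the gene minimum, cut at the same shares, alas2 was highest in the middle band. It stood there at 1926, 2665 and 2276 CPM in ALK5i and 1442, 2354 and 1382 CPM in DMSO. The iron list stood at 21176, 20570 and 23653 CPM in ALK5i and 22210, 23922 and 29012 CPM in DMSO. EYFP, read as the reporter below, was highest in the low band of globin-rich cells. It stood at 889.5, 611 and 260 CPM in ALK5i and 845, 211 and 320 CPM in DMSO. Those values rest on 88, 68 and 75 UMIs in ALK5i and 172, 54 and 176 in DMSO. Single globin-rich cells held up to 53 UMIs of EYFP in ALK5i and 67 in DMSO. Under the gene minimum EYFP had 0, 2 and 5 UMIs in ALK5i and 2, 2 and 1 in DMSO. Among single genes singled out after their values were seen, si:ch211-214b16.2 had 8, 3 and 0 UMIs in ALK5i and 19, 9 and 0 in DMSO, while BX000438.2 had 0, 2 and 35 in ALK5i and 0, 0 and 23 in DMSO. Under the gene minimum si:ch211-214b16.2 had 6, 2 and 0 UMIs in ALK5i and 1, 1 and 0 in DMSO. The pattern of BX000438.2 did not recur there, with 1, 0 and 0 UMIs in ALK5i and 0, 0 and 0 in DMSO. The high band of ALK5i held 116867 UMIs outside globin there, against 287996 in globin-rich cells.

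The bands were also present in barcodes that the selection left out. Under the gene minimum they held 105, 118 and 297 barcodes in ALK5i and 16, 40 and 39 in DMSO, again with none between 5% and 10% hbbe1.1. There the counting intervals of the libraries did not overlap for the middle band (22.7%, interval 19.2% to 26.5%, in ALK5i and 42.1%, 32.0% to 52.7%, in DMSO) and the high band (57.1%, 52.7% to 61.4%, and 41.1%, 31.1% to 51.6%). The gene minimum left out very unlike parts of the ALK5i and DMSO barcodes, and a difference in band sizes was not tested. At 6 dpf the few globin-rich cells, 12 in ALK5i and 15 in DMSO, were split 2, 6 and 4 and 2, 9 and 4. Under the gene minimum at 6 dpf, 1 of 21 ALK5i barcodes lay between 5% and 10%, at 9.52% hbbe1.1, and 0 of 17 in DMSO. Larvae were pooled and barcodes carry no mark of the larva, so differences between larvae and between cells of a larva cannot be told apart.

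The balance of alpha-type to beta-type globin differed between the libraries. In ALK5i cells hbae genes made up 36.6% of hbbe and hbae UMIs and in DMSO cells 31.7%, a difference of 4.91 percentage points (4.76 to 5.06). That interval takes each UMI as a separate draw and leaves out the spread between cells. Per cell the median was 36.4% in ALK5i (quartiles 34.4% and 38.7%) and 31.6% in DMSO (29.6% and 33.8%), so the quartile ranges did not overlap, although the full ranges did. The share of summed UMIs was 36.5% against 31.5% in cells at 60% globin or more and 36.4% against 32.5% in barcodes under the gene minimum. Without Scrublet calls it was 36.7% against 31.7%. The difference was also present in each band, with medians per cell of 38.8%, 37.9% and 35.3% in ALK5i and 33.9%, 32.8% and 30.4% in DMSO. Hbae3 had the larger part in it, and with 1 library a group the part of the treatment was not tested.

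**Figure D3:**
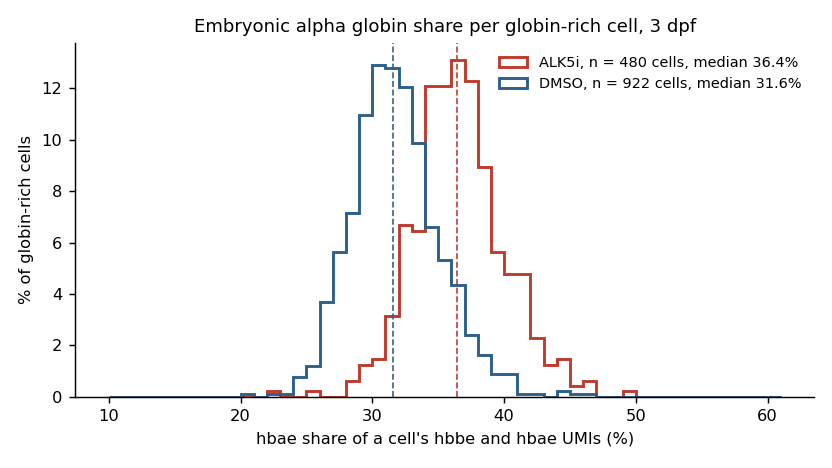
Histogram of the hbae share of each cell's hbbe and hbae UMIs (percent, 1-point bins), as a percentage of the 480 ALK5i and 922 DMSO globin-rich cells. Dashed lines mark the medians, 36.4% in ALK5i and 31.6% in DMSO.

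The remaining globins were rare. Hbbe3 had a UMI in 206 ALK5i cells (42.9%) and 331 DMSO cells (35.9%), and 35 cells of each library held at least 20. It took 0.541% and 0.270% of globin UMIs, with up to 319 and 310 UMIs in 1 cell. Hbae5 took 0.0943% and 0.0921%. The gene zgc:163057, which a reference table names hbae4 and which the selection did not use, had 291 and 659 UMIs and stood at 584 and 653 CPM, against 0.707 and 1.05 CPM in other kept cells. Adult hbaa and hbba genes had 129 UMIs in ALK5i, of which 123 lay in 1 cell of 1671 UMIs and 369 genes with 56.3% embryonic globin, and 10 UMIs in 10 cells in DMSO. Apart from that cell the adult set was at the level of scattered single UMIs.

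What else set globin-rich cells apart was read from 22298 genes with at least 30 UMIs over both classes of cells. Of these, 596 (2.67%) were at least 2-fold higher and 683 (3.06%) at least 2-fold lower in globin-rich than in other kept cells of both libraries. Ratios are of CPM + 5, so they understate differences of rare genes, and the count of lower genes varied most with the settings, up to 5815 on a scale of all UMIs, where 197 were higher. Against that background 61 of 129 genes on 6 erythroid lists were higher and 2 lower, or 40 higher on a scale of all UMIs. The lists were drawn up with earlier results of these data in view. Since the cells were chosen by an erythroid product, this describes them and is no independent evidence.

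The heme synthesis list had 10 of 18 genes higher and 0 lower. Alas2 stood at 1218 CPM in ALK5i and 1370 in DMSO globin-rich cells, against 1.35 and 1.77 in the other cells. Uros, which closes the porphyrin ring, stood at 375 and 392.3 CPM against 7.52 and 9.13, and urod, the next enzyme, at 193 and 184 against 18.2 and 21.7. Tmem14ca, a mitochondrial carrier of heme precursors, stood at 508 and 445 CPM against 95.8 and 87.9. The general form alas1 was not higher, with 128 and 176 CPM against 192 and 210.

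On the iron handling list 9 of 23 genes were higher and 1 lower. Ferritin heavy chain fth1a, which stores iron, reached 10643 CPM in ALK5i and 12391 in DMSO, against 1079 and 1068, and was detected in 100% of globin-rich cells but also in 60.1% and 67.7% of the others. The related fthl27 stood at 9371 and 11554 CPM against 6811 and 7428, so it was abundant in both. Tfr1a, the transferrin receptor that takes up iron, stood at 260.9 and 294 CPM against 8.30 and 8.67. Glrx5, needed for iron-sulfur clusters, stood at 432 and 379 CPM against 53.8 and 54.4. The mitochondrial iron importer slc25a37 stood at 153 and 157 CPM against 192 and 182.

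Of 23 erythroid regulators 12 were higher and 0 lower. Hemgn stood at 3368 CPM in ALK5i and 3605 in DMSO against 5.50 and 7.68, and lmo2, a bridging protein of the erythroid transcription complex, at 606 and 699 against 24.0 and 27.4. Klf17, a Krüppel-like factor, stood at 145 and 206 CPM against 1.001 and 1.15, gfi1b, a repressor in red cells and platelets, at 173 and 194 against 4.37 and 3.88, and the erythropoietin receptor epor at 171 and 143 against 3.74 and 3.49. Gata1a and klf1 were at far lower levels than hemgn, with 62.2 and 72.3 CPM and 58.2 and 62.4 CPM.

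The membrane skeleton list had 12 of 22 genes higher and 0 lower. The spectrin-actin linker epb41b stood at 1078 CPM in ALK5i and 1306 in DMSO against 9.61 and 11, and beta-spectrin sptb at 331 and 389 against 11.2 and 11.1. Ankyrin ank1a stood at 297 and 286 CPM against 5.56 and 4.98, and tmod4, which caps actin filaments, at 801 and 951 against 3.66 and 4.37. Among transporters, the anion exchanger slc4a1a stood at 524 and 684 CPM against 8.46 and 11.3, and the water channel aqp1a.1 at 1004 and 1008 against 17.6 and 19.4. Rhag, an ammonium or gas channel of the Rh family, stood at 454 and 484 CPM against 135 and 189, the smallest contrast of those named here.

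Of 24 genes for redox and carbon dioxide metabolism 9 were higher and 1 lower. Prdx2, a peroxiredoxin that removes peroxide in red cells, was the second most abundant of the listed genes after fth1a, with 10354 CPM in ALK5i and 12183 in DMSO against 563 and 651. Blvrb, a biliverdin reductase, stood at 2051 and 2255 CPM against 73.6 and 86.6, the glutathione peroxidase gpx1a at 1638 and 1782 against 215 and 239, and the nucleotidase nt5c2l1 at 1301 and 1540 against 9.44 and 13.2. On the autophagy and maturation list 9 of 19 were higher and 0 lower. There creg1, a lysosomal glycoprotein, stood at 1816 and 2351 CPM against 22.6 and 34.2, and bnip3lb, a receptor for the removal of mitochondria, at 480 and 587 against 44.0 and 45.3. The autophagosome proteins gabarapa (680 and 669 CPM against 207 and 187) and map1lc3b (420 and 443 against 363 and 345) differed less.

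**Figure D4:**
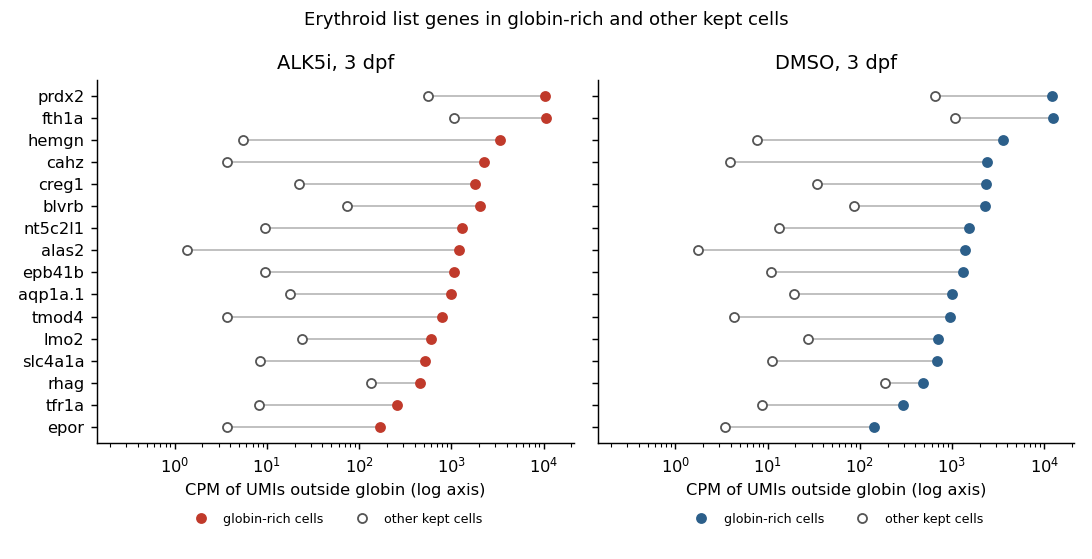
Levels of 16 erythroid list genes, picked after their values were seen, in globin-rich cells (filled) and other kept cells (open), as CPM of UMIs outside globin on a log axis, ALK5i left and DMSO right. All 16 lie higher in globin-rich cells of both libraries, from rhag with the smallest gap to alas2 with the largest.

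Several genes with no listed role were as specific. The genes with the greatest contrast to other cells included si:ch211-250g4.3 at 4114 CPM in ALK5i and 4512 in DMSO, against 4.23 and 6.46, and BX005417.1 at 3247 and 3664 against 2.78 and 3.53. The gene with most UMIs outside globin, CR383676.2, which a reference table names malat1, is a nuclear RNA and stood at 37935 and 34875 CPM, against 25007 and 22333. Heat shock genes were also abundant: hsp90aa1.2 stood at 8203 and 9677 CPM against 3084 and 2197, and hsp70l at 4468 and 5286 against 499 and 445. Of 36 genes linked to stress and tissue dissociation 8 were higher and 4 lower.

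Markers of other cell types were present, and most of their lists summed to less than in other kept cells. Of 11 marker lists, the thrombocyte list alone had genes 2-fold higher in globin-rich cells, gp9 (285 CPM in ALK5i and 369 in DMSO, with a UMI in 23.5% and 31.2% of cells against 0.404% and 0.506%) and gp1bb (137 and 151 CPM against 3.81 and 3.79), both subunits of a platelet receptor. Defining thrombocyte genes were rare, with 0 and 3 UMIs of itga2b and 5 and 22 of mpl. Muscle markers were lower for 11 of 12 genes and neutrophil markers for 8 of 11. Lyz, the neutrophil lysozyme, had a UMI in 5.83% of ALK5i and 25.6% of DMSO globin-rich cells, against 7.05% and 21.3% of all other kept cells, at the median depths given above, and nothing is read from them. The macrophage list summed to 2477 CPM in ALK5i and 2301 in DMSO, against 4918 and 4582 in other kept cells, and the neutrophil list to 1042 and 914 against 5210 and 4792. The pigment list summed to 9200 CPM in ALK5i, above the 7282 of other kept cells, and to 8356 in DMSO, below their 8880. The thrombocyte list was above them in both, with 704.5 and 771 CPM against 603 and 465. The part of free RNA and of mixed barcodes in these values was not tested.

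A second comparison was with erythroid cells below the globin threshold, chosen as kept cells with UMIs of at least 2 of the 4 genes gata1a, klf1, tfr1a and alas2. There were 119 of them in ALK5i (0.433% of kept cells) and 204 in DMSO (0.597%), with a median of 0.0440% and 0.0867% globin, and they were large cells with a median of 4200 and 5482 UMIs and 1412 and 1740 genes. Of 8612 genes, 1667 (19.4%) were at least 2-fold higher and 1370 (15.9%) at least 2-fold lower in globin-rich than in these cells, in both libraries. The difference in depth bears on these shares and was not separated from them, and the counts include the 4 genes that chose the cells, whose own values are not read.

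Cell cycle genes were lower in globin-rich cells than in these cells below the threshold almost throughout. Of 23 G2 and M phase genes 22 were lower and 0 higher, and of 21 S phase genes 18 were lower and 0 higher. Against all other kept cells fewer were lower: 10 of 26 G2 and M phase genes, with 1 higher, and 4 of 22 S phase genes, with 1 higher. Among all genes of that comparison 3.06% were lower and 2.67% higher. In the comparison with cells below the threshold 15.9% of all genes were lower and 19.4% higher. The proliferation marker mki67 stood at 48.2 CPM in ALK5i and 29.7 in DMSO globin-rich cells, against 501 and 416 in the cells below the threshold. The replication clamp pcna stood at 44.2 and 43.6 CPM against 396 and 335, and the chromatin protein hmgb2a at 721 and 510 against 2001 and 1586. Myb, a transcription factor of blood progenitors, stood at 84.3 and 53.5 CPM against 1032 and 867. Of 88 ribosomal protein genes 7 were lower by that size and 0 higher. The whole list still summed to less, 226016 CPM in ALK5i and 214622 in DMSO against 370839 and 372724. A difference that large in the total bears on the CPM of all other genes in this comparison and was not separated from them.

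Maturation and membrane genes were higher for most list members, and so were markers of some other cell types: macrophage markers for 12 of 13 and lower for 0 (2477 CPM in ALK5i and 2301 in DMSO for the whole list, against 324 and 564.5), pigment markers for 9 of 13 and lower for 0 (9200 and 8356 against 1855 and 1562), and neuron markers for 6 of 12 and lower for 0 (660 and 517 against 77.7 and 220). Their part in the gene groups of this comparison was not tested. On the autophagy and maturation list 15 of 19 were higher and 0 lower, with creg1 at 1816 CPM in ALK5i and 2351 in DMSO against 60.2 and 89.7, and bnip3lb at 480 and 587 against 44.7 and 30.5. The membrane skeleton list had 10 of 16 higher and 1 lower. There tmod4 stood at 801 and 951 CPM against 25.3 and 29.6, and aqp1a.1 at 1004 and 1008 against 48.6 and 36.4, whereas slc4a1a (524 and 684 against 538 and 555) stayed under that size and rhag (454 and 484 against 1134 and 1157) was lower. Of the redox list 11 of 21 were higher and 0 lower, with prdx2 at 10354 and 12183 CPM against 2970 and 3269 and cahz at 2252 and 2385 against 23.3 and 50.8. On the iron list 10 of 18 were higher and 1 lower, with fth1a at 10643 and 12391 CPM against 3065 and 2883. That list holds tfr1a, which helped choose the cells below the threshold. Over all genes of this comparison 19.4% were higher and 15.9% lower.

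Heme genes and regulators went both ways, as did all 8612 genes of this comparison, with 19.4% higher and 15.9% lower. Of 16 heme genes 4 were higher and 2 lower, which is near those shares, so nothing is read from these counts. The heme list also holds alas2, and the regulators hold gata1a and klf1. These genes helped choose the cells below the threshold, so that choice can enter the counts of both lists. Tmem14ca stood at 508 CPM in ALK5i and 445 in DMSO against 894 and 823. Among 21 regulators 6 were higher and 6 lower: hemgn stood at 3368 and 3605 CPM against 247 and 243, while znfl2a, a zinc finger gene of blood cells, stood at 187 and 179 against 449 and 505. Stress and dissociation genes were higher for 24 of 28 and lower for 0, beside the macrophage, pigment and neuron markers that moved the same way, and hsp70l stood at 4468 and 5286 CPM against 93.2 and 99.9.

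Within the globin-rich cells all 6 erythroid lists were higher where the globin share was higher, on the scale that leaves globin out. In bins of 20% to 40%, 40% to 60% and 60% to 80% globin there were 97, 101 and 281 ALK5i cells and 126, 152 and 638 DMSO cells, and above 80% there were 1 and 6 more. Along these bins the heme list summed to 1514, 2420 and 5219 CPM in ALK5i and 1441, 3126 and 4495 CPM in DMSO. The membrane list summed to 2464, 5419 and 9894 CPM in ALK5i and 2311, 6209 and 9588 CPM in DMSO. The regulators followed with 2980, 5510 and 9846 CPM in ALK5i and 3000, 6024 and 9108 CPM in DMSO. The iron list summed to 15675, 21014 and 32809 CPM in ALK5i and 17308, 22572 and 35919 CPM in DMSO. In median UMIs per cell the picture differed: the heme medians were 3, 2 and 3 in ALK5i and 4, 3 and 3 in DMSO, the membrane medians 6, 5 and 6 and 6, 7 and 6, and the regulator medians 7, 5 and 5 and 8, 7 and 6. The other medians dropped, for iron handling 29, 18 and 17 and 41.5, 24 and 20, for redox 30, 26 and 21 and 39, 31 and 24, and for autophagy 10, 5 and 5 and 14, 8 and 6. From the lowest to the highest bin none of these medians rose. From the middle to the highest bin the heme and membrane medians rose in ALK5i, from 2 to 3 and from 5 to 6. The median of UMIs outside globin was 2267, 884 and 563 in ALK5i and 2859, 1157 and 650.5 in DMSO. What made the CPM higher was not tested. The median number of genes was 1065, 478 and 334 in ALK5i and 1292, 571 and 389 in DMSO.

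Macrophage and neutrophil markers were highest in the lowest bin. The macrophage list summed to 4533, 1179 and 383.5 CPM in ALK5i and 4480, 1423 and 781 CPM in DMSO, with medians of 3, 0 and 0 and of 4, 1 and 0 UMIs per cell. The neutrophil list summed to 1965, 244 and 228 CPM in ALK5i and 1386, 524 and 673 CPM in DMSO, with medians of 2, 0 and 0 UMIs per cell in both. The lowest bin was also where Scrublet made most of its calls, 38 of 97 cells (39.2%) in ALK5i and 82 of 126 (65.1%) in DMSO, against 6 and 10 in the middle bin and 0 in the highest. The part of doublets in the lowest bin was not tested.

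**Figure D5:**
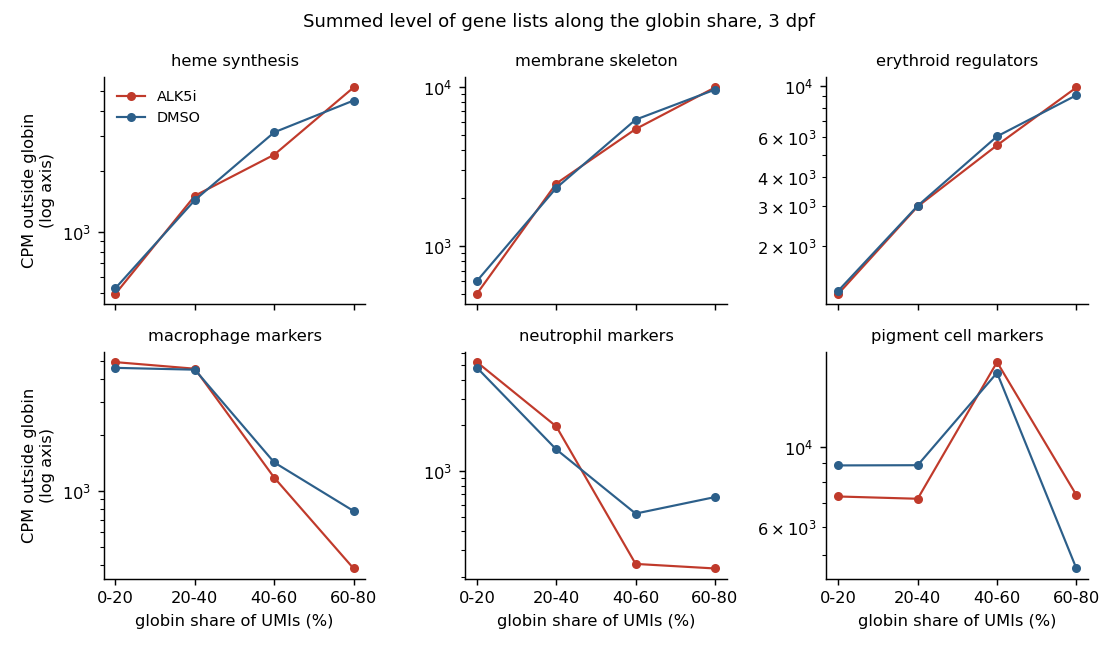
Summed level of 6 gene lists (heme synthesis, membrane skeleton, regulators, macrophage, neutrophil and pigment markers) as CPM of UMIs outside globin on a log axis, for kept cells in 4 bins of globin share (0% to 20%, 20% to 40%, 40% to 60%, 60% to 80%), in ALK5i and DMSO. The 3 erythroid lists climb from the lowest to the highest bin (heme to 5219 CPM in ALK5i and 4495 in DMSO), and the macrophage list drops to 383.5 and 781 CPM.

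By the smaller of the ratios in the libraries, the genes that climbed most along the bins were rfesd, an iron-sulfur domain protein, si:ch73-250a16.5 and arl4aa, a small GTPase. Rfesd stood at 150.5, 549 and 1061 CPM in ALK5i and 165, 582 and 1125 CPM in DMSO, a log2 ratio of the highest over the lowest bin of 2.78 and 2.73. That ratio was 2.69 and 2.76 for si:ch73-250a16.5 and 2.61 and 2.64 for arl4aa. Among the 8 that climbed most were also pdk1, a kinase that curbs pyruvate oxidation, and tubb1, a beta-tubulin of blood cells. Pdk1 stood at 25.8, 102 and 234 CPM in ALK5i and 39.3, 164 and 236.5 CPM in DMSO, and tubb1 at 34.4, 102 and 210 in ALK5i and 28.8, 143 and 220 in DMSO. Plek and gpr84 were among the 8 that dropped most. Plek, a signalling protein of blood cells, stood at 503, 71.2 and 30.0 CPM in ALK5i and 437.5, 68.8 and 32.1 CPM in DMSO, and gpr84, a receptor of myeloid cells, at 796, 61.0 and 42.0 and at 990, 111 and 112.5 CPM.

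A pigment gene was abundant in a subset of globin-rich cells. Gch2, the first enzyme of pteridine pigment synthesis in yellow pigment cells, had at least 10 UMIs in 122 ALK5i cells (25.4%) and 178 DMSO cells (19.3%). That count chose the cells and is not scaled to depth, so their high gch2 level is fixed by the choice. The share of other kept cells with as many gch2 UMIs is not given here. In the chosen cells gch2 stood at 21252 and 18149 CPM, against 1327 and 1532 in the remaining 358 and 744 globin-rich cells. Other genes of purine and pteridine metabolism went with it: paics stood at 1439 CPM in ALK5i and 1475 in DMSO against 181 and 171, uraha at 1910 and 2087 against 253 and 238, and the transporter slc2a11b at 1579 and 1558 against 173 and 164. These cells still carried erythroid RNA, with hemgn at 2322 and 2470 CPM against 3822 and 4086 and a median of 55.5% and 50.3% globin against 65.8% and 68.1%. They had more genes, a median of 450.5 and 618.5 against 355 and 402, and Scrublet called 19 of 122 and 40 of 178 of them, against 25 of 358 and 52 of 744. At least 1 gch2 UMI was found in 54.2% and 71.7% of globin-rich cells and in 53.5% and 79.8% of other kept cells, so nothing is read from single UMIs. Along the globin bins the pigment list was highest in the middle, with 7177, 17171 and 7347 CPM in ALK5i and 8892, 16040 and 4599 CPM in DMSO.

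The feature read as the reporter was scarce. The labels name GFP, but the GFP feature had 0 UMIs in globin-rich and in other kept cells, so a feature named EYFP was read instead. That EYFP is the transcript of the sorted reporter was not tested. EYFP had a UMI in 28 ALK5i cells (5.83%, interval 3.91% to 8.32%) and 88 DMSO cells (9.54%), against 11.5% and 17.0% of other kept cells. With every cell thinned to 500 UMIs the shares were 2.71% and 2.82%, against 7.81% and 9.54%, but the UMIs left outside globin still differ between the libraries and between the classes. Only 10 and 14 cells held 5 or more EYFP UMIs. Along the globin bins EYFP stood at 929, 50.8 and 59.9 CPM in ALK5i and 744, 333 and 124 CPM in DMSO, highest where Scrublet calls were most frequent. The gene gata2b itself, a transcription factor of blood stem cells, had a UMI in 6 (1.25%) and 7 (0.759%) globin-rich cells, against 3.82% and 5.04% of the others. At 60% globin or more no cell had a gata2b UMI, where 3 counts would make a share of 1.06% in ALK5i and 0.466% in DMSO. That bounds cells with a UMI and not cells that express the gene, since cells between 60% and 80% globin had a median of only 563 and 650.5 UMIs outside globin.

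Between ALK5i and DMSO globin-rich cells, levels outside globin were compared for 5491 genes with at least 30 UMIs in both libraries together. Of these, 381 (6.94%) were at least 1.5-fold higher and 373 (6.79%) at least 1.5-fold lower in ALK5i, and the median log2 ratio was -0.01. With 1 library a group these are sizes and not calls. On the 6 erythroid lists 3 of 103 genes were higher and 4 lower, which is no excess over that background in either direction, and the median log2 ratio was -0.09, as in the other kept cells. That median changed sign with the selection: it was 0.10 without the gene minimum, 0.03 in cells at 60% globin or more, and 0.02 on a scale of all UMIs. The median of all genes was -0.08, -0.05 and 0.09 in these settings. The interval of the -0.09 over the listed genes left out 0 (-0.165 to -0.03), while that of the median over all genes included it (-0.022 to 0.004). Of the changed values only that without the gene minimum had an interval over the listed genes that left out 0 (0.048 to 0.181). These intervals take each gene as a separate draw and do not cover the spread between libraries.

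By role, the erythroid genes lay close together. The heme list had 0 of 14 higher and 1 lower, hmbsa (log2 ratio -0.61 from 13 UMIs in ALK5i and 43 in DMSO), an enzyme of the early pathway, while alas2 stood at 1218 CPM in ALK5i and 1370 in DMSO. The iron list had isca2, an iron-sulfur assembly factor, higher (0.69, 43 and 52 UMIs) and the iron exporter slc40a1 lower (-0.81, 17 and 64 UMIs). Among 20 regulators myb was higher (0.61, 42 and 54 UMIs), and foxo3b, a stress-response transcription factor (-0.65, 36 and 117 UMIs), and zfpm1, a partner of GATA factors (-0.61, 14 and 46 UMIs), were lower. Most UMIs of myb lay in the lowest bin of globin share. In the bins of 20% to 40%, 40% to 60% and 60% to 80% globin it had 38, 4 and 0 UMIs in ALK5i and 37, 7 and 10 in DMSO. It was thus lower in ALK5i in the highest bin. The lowest bin is also where most Scrublet calls lie, and the part of doublets in the myb ratio was not tested. The intervals of hmbsa (-1.44 to 0.19) and zfpm1 (-1.42 to 0.17) reached past 0, and that of myb kept above it only just (0.04 to 1.18). None of 16 membrane genes and none of 18 autophagy genes passed that size, and of 19 redox genes hmox1a, the heme oxygenase, did (0.79, 41 and 46 UMIs, 16 of the 41 in 1 cell). Slc4a1a, at 524 CPM in ALK5i and 684 in DMSO, and creg1, at 1816 and 2351, stayed under that size, with log2 ratios of -0.38 and -0.37.

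Known responders to TGF-β and BMP signalling were too sparse to read in most cases, since only 11 of 34 reached 30 UMIs. Of these 0 were higher and 1 lower, the collagen gene col1a1a with 9 UMIs in ALK5i and 56 in DMSO, of which 16 lay in 1 cell. The inhibitors of differentiation id1 (253 CPM in ALK5i and 218 in DMSO), id2a (110 and 101) and id3 (110 and 139) and the signal transducer smad2 (70.25 and 83.2) stayed under that size. Stress genes had a median log2 ratio of -0.23 in globin-rich cells and 0.13 in other kept cells. Hsp90aa1.2 stood at 8203 CPM in ALK5i and 9677 in DMSO, hsp70l at 4468 and 5286, and dnajb1b at 1632 and 2051. Of the 86 ribosomal protein genes tested 2 were higher and 1 lower.

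Among all globin-rich cells, the greatest ratios named here came from few barcodes. Agr2, a secretory gene, had 210 UMIs in ALK5i and 8 in DMSO, with 205 in 1 ALK5i cell. S100a11 had 1 and 370 UMIs, with 369 in 1 DMSO cell, pyya, a gut hormone, 0 and 111 with 110 in 1 cell, and the keratin gene krtt1c19e 4 and 210 with 185 in 1 cell. Mag had 53 and 0 UMIs, mbpa 47 and 0, cldnk 35 and 0 and mpz 35 and 0, in 6, 7, 6 and 4 ALK5i cells. The higher and lower genes had a median of 48 and 49 UMIs over both libraries, against 78 for the others. The part of this difference in the next counts was not tested. At least 25% of the UMIs lay in 1 cell for 59 of the 381 higher genes (15.5%) and 35 of the 373 lower genes (9.38%), against 80 of the other 4737 (1.69%). Marker lists of other cell types moved with this: mesenchyme markers were lower for 4 of 5 genes tested (169 CPM in ALK5i and 302 in DMSO for the whole list), epidermis markers lower for 4 of 6 and higher for 1 (395 and 774 CPM), and neuron markers higher for 4 of 10 (660 and 517 CPM). Their part in these counts was not tested.

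At 6 dpf, in libraries sorted for mpeg1.1 mCherry, globin-rich cells were 12 of 1184 kept cells in ALK5i (1.01%, interval 0.525% to 1.76%) and 15 of 1984 in DMSO (0.756%, 0.424% to 1.24%). The hbae share of their globin UMIs was 39.2% in ALK5i and 35.2% in DMSO. Those cells come from another sort and stage, so the levels are given side by side with no comparison to 3 dpf.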

How the data were processed

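Single-cell RNA was measured in 4 libraries, 1 per group, of which the 3 dpf pair is used here. The authors deposited raw UMI counts per gene and barcode from Cell Ranger, version 9.0.0 per the file headers and 9.0.1 per the submitters' processing notes, which also name the build GRCz11. The annotation release is not given in the sources used here. The 3 dpf matrices held 28261 barcodes and 60001771 UMIs in ALK5i and 34398 and 97212191 in DMSO.

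Cells were kept with at least 500 UMIs, 300 genes and at most 10% mt- UMIs. Counts were summed over the cells of a library and scaled to CPM of UMIs outside hbbe and hbae genes, and log2 ratios used CPM + 5 for genes with at least 30 UMIs. Sizes of 1.5-fold (ALK5i over DMSO) and 2-fold (between classes of cells) were counted, with no test, since each group has 1 library. Intervals for shares are exact binomial (Clopper-Pearson), for differences of shares Newcombe. Where a share is 0, the share that 3 counts would make is given instead. Scrublet, with an expected 0.4% per 1000 cells, called 1930 ALK5i cells (7.03%, 11% expected) and 2763 DMSO cells (8.09%, 13.7% expected), and these were kept except in 1 alternative. Doublets of like cells escape it. The computation was checked on simulated data.

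The cells, the 24 gene lists (412 of 434 symbols matched) and the tests were chosen with earlier results of these data known. Genes are named by a rule: all globins, up to 8 members with most UMIs and both extremes of each list, and the extremes of each comparison. Others are said to be chosen after their values were seen, or illustrate a list. No sequence is printed, since no sequence table was used here. Alternatives changed thresholds, filters, scale and pseudocount. Tools were Python 3.11.15, numpy 2.4.6, scipy 1.17.1, pandas 2.3.3, scanpy 1.11.5, anndata 0.12.19 and matplotlib 3.10.9.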

Additional observations from a re-analysis of the deposited data

Results flagged for a closer look

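The share of globin-rich cells differed between ALK5i and DMSO in opposite directions at the 2 stages, by -0.952 percentage points at 3 dpf and by 0.258 points at 6 dpf. The 6 dpf interval (-0.395 to 1.06) includes 0, and its shares rest on 12 and 15 cells. Without the gene minimum the directions were not opposite: the 3 dpf difference was 0.581 points, and at 6 dpf 33 of 1224 ALK5i barcodes and 32 of 2037 DMSO barcodes were globin-rich. The difference between the stages was not tested, and the stages come from different sorts.

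Barcodes at the globin threshold but under 300 genes, which no share of kept cells counts, numbered 520 in ALK5i and 95 in DMSO.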

How the results depend on the processing

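No paired analysis was possible because each group has 1 library, and for the same reason no replicate could be left out. Of 85 alternative values of the main results, 56 stayed within the bounds set for them, 23 moved and 6 changed direction. Of 60 values for single erythroid lists, 51 stayed and 9 moved, and single genes were not among them. The difference in the share of globin-rich cells (-0.952 points) became 0.581 without a gene minimum and 0.467 at 200 genes. The count of genes higher in ALK5i (381) was 187 at a 40% globin threshold, 140 at 60%, 237 without a gene minimum, 1094 with 10 or more UMIs per gene and 51 with 100 or more; the count of lower genes (373) was 141 on a scale of all UMIs, 1129 with 10 or more UMIs and 47 with 100 or more. The median log2 ratio of the 6 erythroid lists (-0.09) was -0.026 at 40%, 0.0272 at 60%, 0.101 without a gene minimum, 0.0247 on a scale of all UMIs and -0.0228 as a mean over cells. The count of genes lower than in other kept cells (683) was 3086 at 40%, 4374 at 60%, 1084 without a gene minimum, 1904 without Scrublet calls, 2675 with a pseudocount of 1, 5815 on a scale of all UMIs and 2469 as a mean over cells. On the scale of all UMIs the count of higher genes (596) was 197 and that of erythroid list genes (61) was 40. The count lower than in erythroid cells below the threshold (1370) was 844 when 3 of 4 genes chose those cells. The ALK5i minus DMSO difference in median genes (-53) was -113 without a gene minimum and 7 when thinned, that in cells with EYFP (-3.71 points) was -0.112 when thinned, and that in the hbae share (4.91 points) was 4.75 without a gene minimum. Except where thinning or fewer UMIs enter by construction, the cause was not tested. The 200 and 400 gene minimums, the 60% threshold and, for all results but the share, the missing gene minimum were chosen after seeing the data, as were the hbbe1.1 bands. Genes with few UMIs outside globin, gata1a and klf1 among them, are limited by depth.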
